A study of Mus musculus with 6 samples.

Results

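The splicing regulators of mouse astrocytes are described here, that is, the SR proteins (genes whose symbol starts with *Srsf*), the hnRNP proteins (*Hnrnp*), the LUC7-like proteins (*Luc7l*), the CLK kinases (*Clk1* to *Clk4*), and 6 genes taken by name, *Srrm1*, *Srrm2*, *Son*, *Leng8*, *Tra2a* and *Tra2b*. Protein-coding genes were taken by symbol, a rule that uses no measured value but was written with earlier results of these data known, which gave 44 members of the 17193 genes in the tables: 11 SR, 20 hnRNP, 4 CLK, 3 LUC7-like, and 6 SR-related and Tra2 genes. Astrocytes were taken from the brain of wild-type C57BL/6 mice at 3 months of age, with microbeads against ACSA-2, an astrocyte surface antigen encoded by *Atp1b2*, and their poly-T-selected RNA was sequenced. The 2 groups were Mock (control, 3 libraries) and Quinpirole (an agonist of the dopamine receptor DRD2, 3 libraries), all wild type. The dose and the duration of quinpirole for these libraries, and whether each library came from 1 mouse, are not given in the sources used here, so the p-values below measure only the spread between these libraries, which may be technical.

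Splicing removes introns from a pre-mRNA, and the choice of exons depends on proteins bound near the splice sites. SR proteins carry repeats of arginine and serine, the RS domain, and mostly promote the use of the exons they bind, whereas many hnRNP proteins bind exonic or intronic silencers and oppose them. The CLK kinases phosphorylate RS domains and release SR proteins from nuclear speckles, compartments that are built on the large proteins SON and SRRM2, while LUC7-like proteins belong to the U1 particle that recognizes the 5′ splice site. Many of these genes control their own mRNA through poison exons or retained introns, which lead to decay or to retention in the nucleus.

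Values are FPKM, fragment numbers scaled to transcript length and to library depth, so that levels of genes are compared per length. Depth was not recorded. It was put at 22500000 to 27650000 fragments per library from steps of 1 fragment among the smallest FPKM values, of which 60.3% to 72.2% lay within 0.1 of a whole fragment, so these depths and the fragment numbers that rest on them are rough. All 9 astrocyte markers were present, from 5.15 FPKM as the lowest value of *Slc1a2* to 559.9 FPKM as the highest of *Gfap*, and their sum was 1483 to 1645 FPKM in Mock and 1472 to 1502 FPKM in Quinpirole, with 2 of 9 lower by limma, *Slc1a2* and *Atp1b2*. Markers of other cells were not all at 0. The 6 microglial markers summed to 324 to 341 FPKM in Mock and 343 to 376 FPKM in Quinpirole, mainly through *C1qa*, and the 4 ependymal markers to 135 to 148 and 136 to 143 FPKM, mainly through *Foxj1*. The 6 oligodendrocyte markers summed to 156 to 176 and 163 to 173 FPKM, mainly through *Cnp*, with *Mog* at or under 0.0639 FPKM in every library. Of the neuronal markers *Snap25* stayed at or under 0.0773 FPKM, the sum being 17.6 to 19.7 FPKM in Mock and 20.5 to 23.6 FPKM in Quinpirole, and the 5 endothelial markers summed to 7.70 to 8.07 and 6.23 to 7.21 FPKM. The sums of the microglial and neuronal lists were higher in each Quinpirole library than in each Mock library. That of the endothelial list was lower in each. Single microglial markers went both ways. *C1qa* (log2 fold change 0.21), *Aif1*, *Tmem119* and *P2ry12* were higher, and *Csf1r* (-0.16) and *Cx3cr1* (-0.12) were lower. The neuronal sum was mainly *Tubb3*, the only neuronal marker that could be tested. None of the markers of these 3 lists that could be tested passed the threshold. The sums therefore do not show that all markers of a cell type moved together. The part of these marker shifts in the results below was not tested. In bulk libraries, fewer cells of a type and less RNA per cell cannot be told apart.

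The splicing regulators were abundant. All 44 passed the filter of a mean FPKM of at least 1, and 42 lay above 11.4 FPKM, the median over the 12255 genes tested. Their means over the 6 libraries ranged from 1.16 FPKM (*Srsf12*) to 191 FPKM (*Hnrnpab*), and 7 members exceeded 100 FPKM, namely *Hnrnpab*, *Hnrnpa2b1*, *Hnrnpk*, *Hnrnpf*, *Hnrnpa1*, *Srsf5* and *Srsf2*. By summed FPKM the hnRNP genes were the largest family in every library, followed by the SR genes, the SR-related and Tra2 genes, the CLK genes and the LUC7-like genes.

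After quinpirole, individual splicing regulators changed in both directions. With limma on log2(FPKM + 1) and Benjamini-Hochberg adjustment over all 12255 genes, 11 of the 44 members (25%) had an adjusted p under 0.05, compared with 10.9% of all genes tested. *Srsf2*, *Srsf5*, *Hnrnpl*, *Hnrnpab*, *Hnrnpdl* and *Tra2b* rose, 6 of 44 against 5.74% of all genes, and *Srrm2*, *Leng8*, *Srsf11*, *Son* and *Clk4* fell, 5 of 44 against 5.18% of all genes. At an unadjusted p under 0.05 there were 12 higher and 11 lower members, beside 3839 of all 12255 genes in either direction. Most members lay above the median level, so the share over all genes is not matched to their level. In the fit limited to a mean FPKM of at least 5, 1428 of 9014 genes and 12 members passed. The 3 Quinpirole values lay above the 3 Mock values for 13 members, against 20.0% of all genes, and below them for 12, against 16.9% of all genes, and the groups overlapped for 19. The median log2 fold change of the 44 members was 0.037 and that of all genes tested 0.015. Leaving out a single library moved the count of calls, for the members as for all genes. It left 0 members and 6 of all 12255 genes without Mock 1, 0 and 3 without Mock 2, 6 and 1215 without Mock 3, 0 and 11 without Quinpirole 1, 1 and 25 without Quinpirole 2, and 3 and 210 without Quinpirole 3. The limma fits that gave 0 members had 17, 16 and 17 members at an unadjusted p under 0.05, beside 3056, 2891 and 3374 of all genes. No member among the 11 changed sign in any of these fits, which was certain beforehand, as their groups did not overlap. Quantile normalization left 6 of the 44 members, against 6.37% of all genes, with 0 higher and 6 lower (*Srrm2*, *Leng8*, *Son*, *Clk4*, *Tra2a* and *Hnrnph1*). In that fit 7 higher and 12 lower members had an unadjusted p under 0.05 by limma, beside 3499 of all genes.

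**Figure D1:**
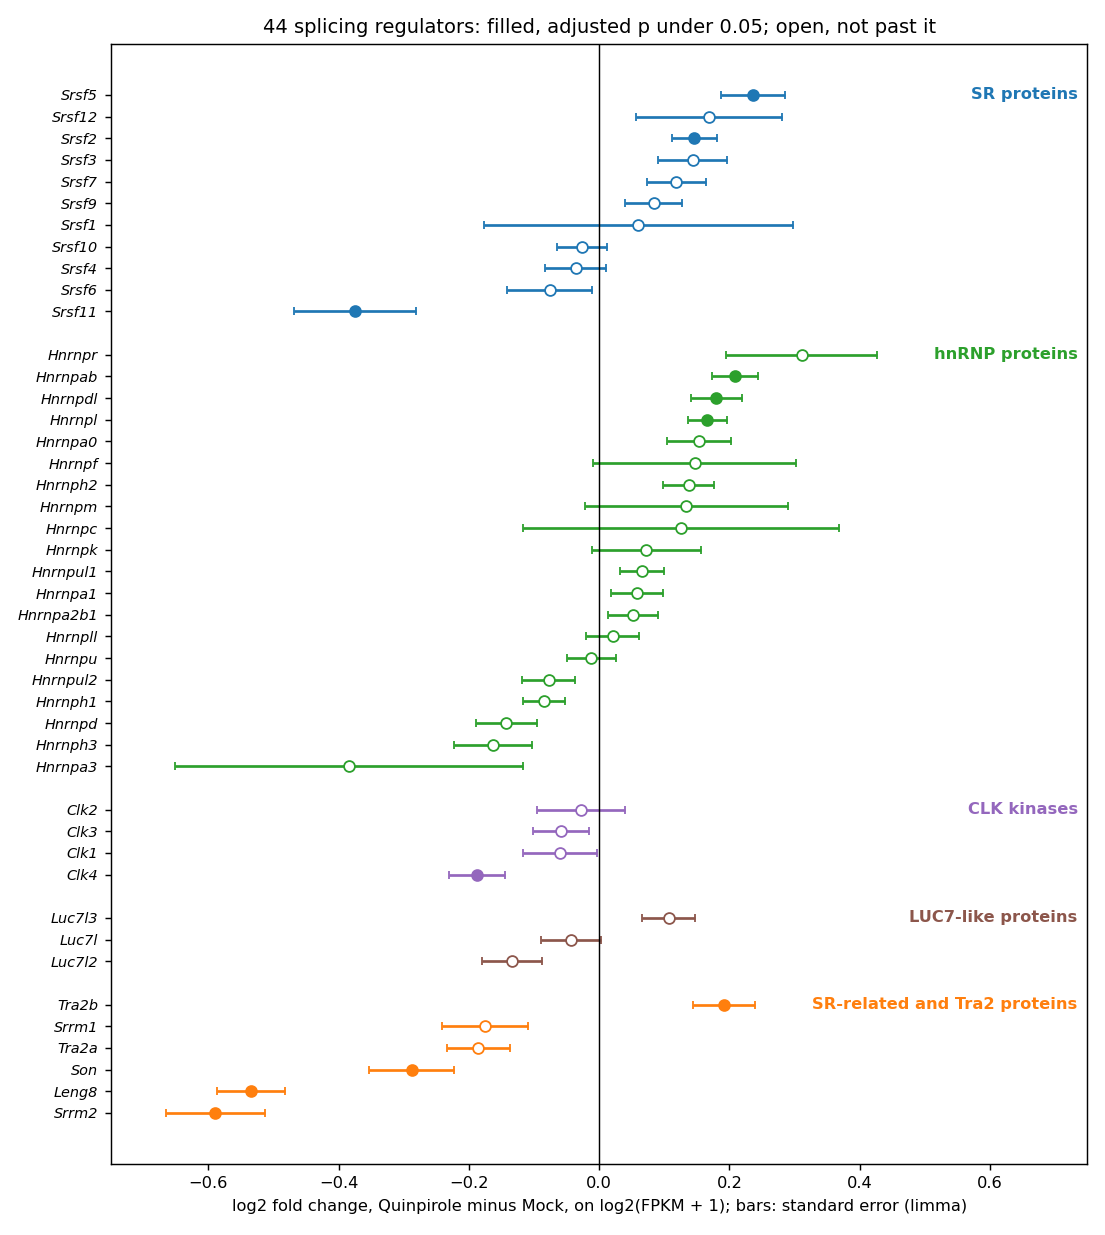
The log2 fold change, Quinpirole minus Mock, of each of the 44 splicing regulators is plotted with its standard error from limma, grouped by family (3 libraries per group). Filled points mark the 11 members with an adjusted p under 0.05, which range from -0.59 (*Srrm2*) to 0.24 (*Srsf5*), and the SR-related and Tra2 genes lie mostly left of 0.

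The SR-related and Tra2 genes held the largest changes. Of the 6, *Srrm2*, *Leng8* and *Son* fell and *Tra2b* rose, where 5.18% of all genes fell and 5.74% rose. The groups did not overlap for any of the 6. In all Quinpirole libraries 5 were lower, against 16.9% of all genes, and 1 was higher, against 20.0% of all genes. Their summed FPKM was 224, 221 and 205 in Mock 1 to 3 and 177, 166 and 177 in Quinpirole 1 to 3, that is 217 ± 9.84 against 174 ± 6.53 FPKM (SD, n = 3 each). All 6 genes are long, with 6395 to 14907 exonic nucleotides. They lie in the length classes 4 and 5 described below, where the median log2 fold change of all genes was -0.034 and -0.11. The sum was not corrected for length.

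*Srrm2* (ENSMUSG00000039218, chromosome 17, 23790532 to 23824741 in GRCm38) encodes a large scaffold protein of nuclear speckles. It had 46.9, 44.8 and 39.6 FPKM in Mock 1 to 3 and 29.9, 26.3 and 30.0 FPKM in Quinpirole 1 to 3. Every Quinpirole library was below every Mock library, by a wide gap. The mean fell by 34.4%, from 43.8 ± 3.80 to 28.7 ± 2.07 FPKM (SD, n = 3), with a log2 change of -0.59 ± 0.08 (SE, limma adjusted p = 0.0225). *Leng8* (ENSMUSG00000035545, chromosome 7, 4137039 to 4148177) had 52.0, 48.1 and 47.5 FPKM in Mock and 33.4, 32.2 and 35.4 FPKM in Quinpirole. The groups were again apart, and the mean fell by 31.6%, from 49.2 ± 2.45 to 33.7 ± 1.60 FPKM, with a log2 change of -0.53 ± 0.05 (SE, limma adjusted p = 0.0215). *Son* (ENSMUSG00000022961, chromosome 16, 91647506 to 91679221), whose product is the other core protein of speckles, had 48.5, 47.8 and 43.6 FPKM in Mock and 40.7, 35.0 and 38.3 FPKM in Quinpirole. Its decrease was smaller, 18.4% of the mean, with a log2 change of -0.29 ± 0.07 (SE, limma adjusted p = 0.0397), and the lowest Mock library was near the highest Quinpirole library. *Srrm1*, a splicing coactivator and partner of *Srrm2*, had 25.3, 28.3 and 24.8 FPKM in Mock and 22.1, 22.3 and 24.7 FPKM in Quinpirole. These groups touched without crossing, and the log2 fold change of -0.17 did not pass the threshold (SE 0.07, limma adjusted p = 0.121).

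The 2 transformer-2 genes, which encode RS-domain proteins that bind purine-rich enhancers and activate exons, had opposite signs. *Tra2b* (ENSMUSG00000022858, chromosome 16, 22244549 to 22266005) had 20.1, 21.2 and 19.8 FPKM in Mock and 22.6, 24.4 and 23.1 FPKM in Quinpirole. All Quinpirole values were higher, with a log2 change of 0.19 ± 0.05 (SE, limma adjusted p = 0.0461), close to the threshold. *Tra2a* (ENSMUSG00000029817, chromosome 6, 49243924 to 49264033) had 30.8, 30.7 and 30.2 FPKM in Mock and 28.5, 25.8 and 25.9 FPKM in Quinpirole. All Quinpirole values were lower, but the log2 fold change of -0.19 fell just short of the threshold (SE 0.05, limma adjusted p = 0.0509). Within a library, *Tra2a* exceeded *Tra2b* 1.53, 1.45 and 1.52 times in Mock and 1.26, 1.06 and 1.12 times in Quinpirole, closer to 1.

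Among the SR proteins, *Srsf5* and *Srsf2* rose and *Srsf11* fell, while the other 8 genes did not pass the threshold. *Srsf5* (ENSMUSG00000021134, chromosome 12, 80945504 to 80950507), an exon-binding SR protein with the highest mean level of the 11, had 96.7, 102 and 107 FPKM in Mock and 121, 124 and 115 FPKM in Quinpirole. No values overlapped, and the log2 change was 0.24 ± 0.05 (SE, limma adjusted p = 0.0322), or 0.14 with quantile normalization (limma adjusted p = 0.0779). *Srsf2* (ENSMUSG00000034120, chromosome 11, 116849901 to 116853094), which encodes the speckle protein also called SC35, had 103, 106 and 103 FPKM in Mock and 113, 114 and 118 FPKM in Quinpirole. The libraries of each group lay close together and the groups apart, with a log2 change of 0.15 ± 0.04 (SE, limma adjusted p = 0.0433). It was 0.06 with quantile normalization and 0.09 with the length correction described below (limma adjusted p = 0.326 and 0.188). *Srsf11* (ENSMUSG00000055436, chromosome 3, 158010473 to 158036639), a divergent member of the family, had 45.7, 42.2 and 47.1 FPKM in Mock and 33.5, 30.5 and 39.9 FPKM in Quinpirole. Quinpirole 3 was close to the Mock range, and the log2 change was -0.38 ± 0.09 (SE, limma adjusted p = 0.0464).

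Of the remaining SR genes, *Srsf3* and *Srsf7*, a closely related pair that also acts in mRNA export, were higher in every Quinpirole library, with log2 fold changes of 0.14 and 0.12 that did not pass the threshold (limma adjusted p = 0.118 and 0.121). *Srsf4*, *Srsf6*, *Srsf9*, *Srsf10* and *Srsf12* overlapped between the groups, with log2 fold changes from -0.08 to 0.17. *Srsf1*, the classical splicing factor SF2, was steady in Mock at 27.6, 27.2 and 26.7 FPKM but had 28.4, 19.0 and 42.0 FPKM in Quinpirole, a 2.21-fold range within 1 group. The summed FPKM of the 11 SR genes was 535, 528 and 533 in Mock and 557, 547 and 578 in Quinpirole, 1.05 times the Mock mean, and 1.01 times after quantile normalization. FPKM summed over all genes was 401769, 402354 and 413730 in Mock and 426492, 437164 and 425244 in Quinpirole, also higher in each Quinpirole library.

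The hnRNP genes past the threshold all rose. These were 3 of 20 (15%), against 5.74% of all genes higher and 10.9% in either direction. By limma 0 were lower, against 5.18% of all genes, although 3 lower genes had an unadjusted p under 0.05 beside 6 higher ones. *Hnrnpab* (ENSMUSG00000020358, chromosome 11, 51600100 to 51606847), the most abundant member of all, had 176, 173 and 182 FPKM in Mock and 201, 208 and 205 FPKM in Quinpirole. The Quinpirole libraries stood clearly above, with a log2 change of 0.21 ± 0.04 (SE, limma adjusted p = 0.0250). *Hnrnpl* (ENSMUSG00000015165, chromosome 7, 28808541 to 28822266), which binds CA-rich RNA, had 81.1, 81.0 and 81.9 FPKM in Mock and 90.8, 91.9 and 91.5 FPKM in Quinpirole. Its libraries lay close together within each group, with SDs of 0.535 and 0.526 FPKM, and its log2 change was 0.17 ± 0.03 (SE, limma adjusted p = 0.0258). *Hnrnpdl* (ENSMUSG00000029328, chromosome 5, 100033577 to 100039664) had 33.7, 35.2 and 34.7 FPKM in Mock and 38.3, 40.4 and 38.9 FPKM in Quinpirole. These values did not overlap either, and the log2 change was 0.18 ± 0.04 (SE, limma adjusted p = 0.0356). With quantile normalization the log2 fold changes were 0.09 for *Hnrnpab*, 0.10 for *Hnrnpl* and 0.13 for *Hnrnpdl*, and none of the 3 passed the threshold (limma adjusted p = 0.0917, 0.0807 and 0.0684). The only hnRNP gene past it in that fit was *Hnrnph1*, which was lower (log2 fold change -0.15, limma adjusted p = 0.0357).

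Their relatives behaved differently from one another. *Hnrnpd*, which like *Hnrnpdl* encodes a protein that binds AU-rich elements, had 32.7, 30.3 and 31.3 FPKM in Mock and 27.5, 28.0 and 29.6 FPKM in Quinpirole, so its sign was opposite to that of *Hnrnpdl*, with a log2 fold change of -0.14 that did not pass the threshold (limma adjusted p = 0.0866). *Hnrnpll*, the paralog of *Hnrnpl*, overlapped between the groups at 23.6 to 25.2 FPKM, and its log2 fold change was 0.02 (limma adjusted p = 0.753). With the length correction described below it was 0.14 for *Hnrnpll*, a gene of 11677 nucleotides (limma adjusted p = 0.0888). Next in level to *Hnrnpab* came *Hnrnpa2b1*, at 177 to 187 FPKM in Mock and 184 to 193 FPKM in Quinpirole, where the groups overlapped. *Hnrnpr* had the largest positive log2 fold change of the family, 0.31, and was above Mock in all 3 libraries, but Quinpirole 2 had 42.6 FPKM beside 32.0 and 30.1 FPKM in the others, and the gene did not pass the threshold (limma adjusted p = 0.118). *Hnrnph2*, *Hnrnpa0* and *Hnrnpul1* also lay above Mock in all 3 libraries, and *Hnrnph1*, *Hnrnph3* and *Hnrnpul2* below it, without passing the threshold. Of these, *Hnrnph1* passed it with quantile normalization. *Hnrnpa3*, low in level, had the largest negative value, -0.38, but its groups overlapped at 2.21 to 5.85 FPKM in Mock and 2.47 to 3.62 FPKM in Quinpirole (limma adjusted p = 0.364). *Hnrnpa1*, *Hnrnpc*, *Hnrnpf*, *Hnrnpk*, *Hnrnpm* and *Hnrnpu* overlapped as well. Summed over the 20 genes, FPKM was 1422, 1439 and 1422 in Mock and 1556, 1535 and 1474 in Quinpirole, 1.07 times the Mock mean, and 1.00 times after quantile normalization. Like the SR sum, this stood beside a higher total FPKM of all genes in every Quinpirole library.

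Of the CLK kinases, *Clk4* (ENSMUSG00000020385, chromosome 11, 51261730 to 51281766) fell. It had 20.1, 20.2 and 19.6 FPKM in Mock and 17.2, 18.1 and 17.0 FPKM in Quinpirole. The groups were apart, with a mean lower by 12.8% and a log2 change of -0.19 ± 0.04 (SE, limma adjusted p = 0.0397). *Clk1*, its closest relative and the highest of the 4 kinases, had 29.1, 30.5 and 32.2 FPKM in Mock and 29.7, 30.7 and 27.5 FPKM in Quinpirole and overlapped, with a log2 fold change of -0.06 (limma adjusted p = 0.502). *Clk3* (22.3 to 24.4 FPKM) and *Clk2* (11.2 to 13.3 FPKM) overlapped as well. The summed FPKM of the 4 kinases was 85.7, 86.9 and 88.3 in Mock and 82.1, 83.3 and 80.3 in Quinpirole, lower in every library.

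None of the 3 LUC7-like genes passed the threshold by limma, and 2 had an unadjusted p under 0.05, as did 3839 of all 12255 genes. *Luc7l3* had 25.2, 24.1 and 25.6 FPKM in Mock and 26.9, 26.7 and 27.4 FPKM in Quinpirole, all higher, with a log2 fold change of 0.11 (limma adjusted p = 0.122). *Luc7l2* went the other way, from 26.9, 26.7 and 26.0 FPKM in Mock to 23.4, 23.4 and 25.4 FPKM in Quinpirole, with a log2 fold change of -0.13 (limma adjusted p = 0.0962). With the length correction described below it was -0.0027 for *Luc7l2*, a gene of 12084 nucleotides (limma adjusted p = 0.976). *Luc7l* overlapped at 17.7 to 19.5 FPKM.

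**Figure D2:**
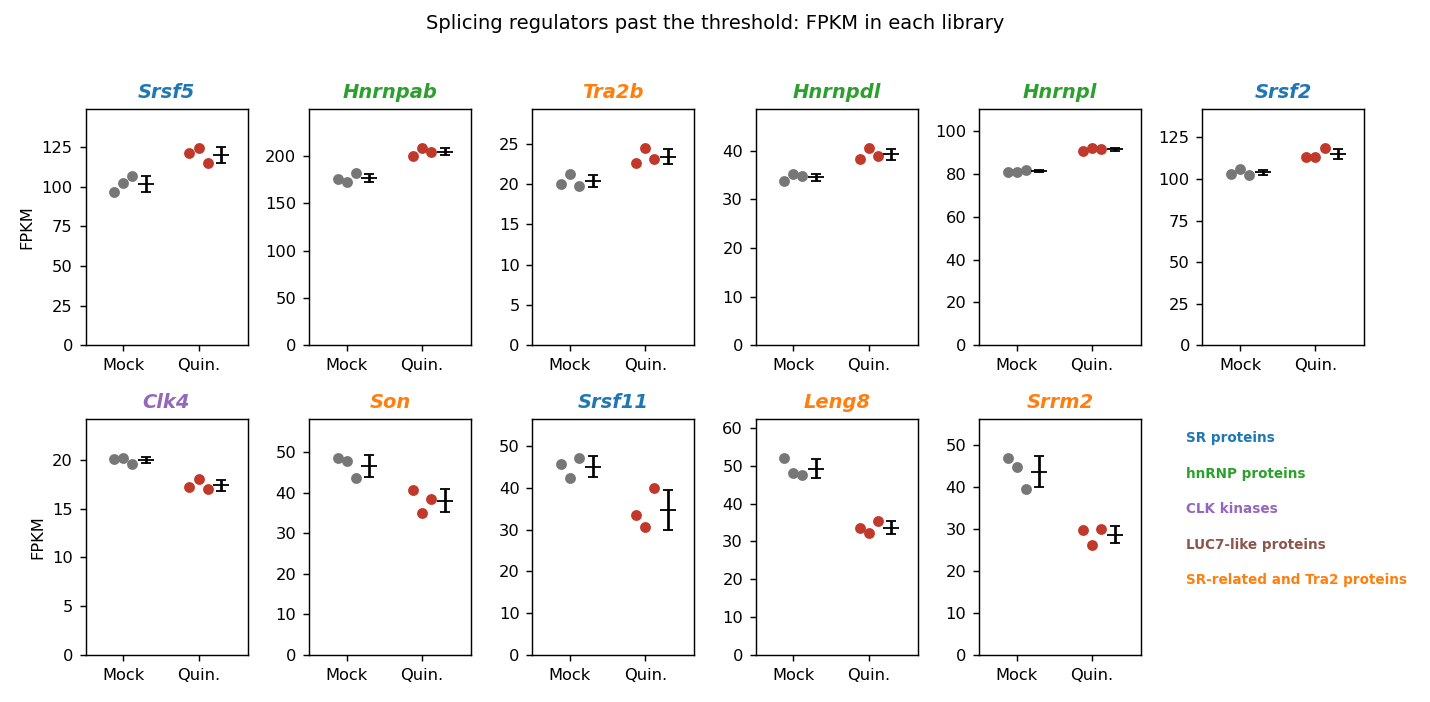
FPKM in each library is shown for the 11 splicing regulators with an adjusted p under 0.05, each axis starting at 0, with Mock in grey, Quinpirole in red (Quin.) and the mean ± SD of 3 libraries as bars. In each panel the groups do not overlap, from *Srsf5* (96.7 to 107 against 115 to 124 FPKM) to *Srrm2* (39.6 to 46.9 against 26.3 to 30.0 FPKM).

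**Figure D3:**
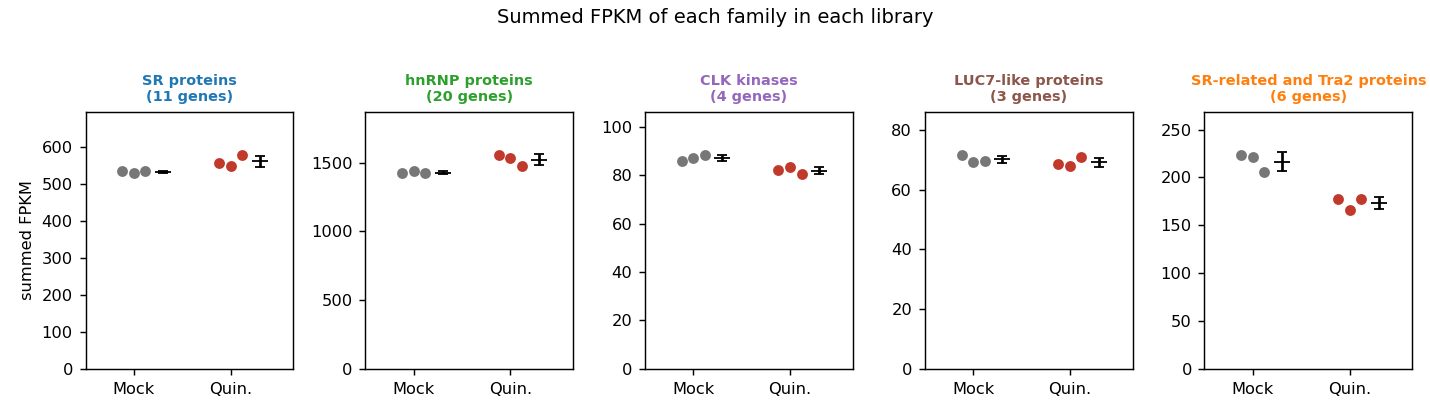
Summed FPKM of each family in each library, with Mock in grey, Quinpirole in red (Quin.) and the mean ± SD of 3 libraries as bars, axes starting at 0. The SR-related and Tra2 sum moved from 217 to 174 FPKM, the hnRNP sum from 1428 to 1522 FPKM, and the LUC7-like sums overlapped between the groups. The total FPKM of all genes, not plotted, was also higher in every Quinpirole library.

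Promoter sequences of members that moved in opposite directions are shown for comparison, 250 bases upstream of the RefSeq transcription start in GRCm38.p6, as the 2 members that fell most and the SR and hnRNP members that rose most among those past the threshold. The *Srrm2* window is chr17:23802937-23803186 on the plus strand, and its start lies inside the span that GENCODE gives the gene. The other windows are chr7:4136806-4137055 on the plus strand for *Leng8*, chr12:80945249-80945498 on the plus strand for *Srsf5*, and chr11:51606882-51607131 on the minus strand for *Hnrnpab*. The *Leng8* window reaches past 4137039, where the GENCODE span of that gene begins, so its last bases lie inside that span. Capitals mark matches, on either strand, to 4 motifs: the core of the antioxidant response element bound by Nrf2 (TGACNNNGC), the cAMP response element (TGACGTCA), the CCAAT box (CCAAT) and an ETS-family core (CCGGAAG). The first pair of motifs both start with TGAC, but a later base differs (G against A), so no start can match both.
Srrm2: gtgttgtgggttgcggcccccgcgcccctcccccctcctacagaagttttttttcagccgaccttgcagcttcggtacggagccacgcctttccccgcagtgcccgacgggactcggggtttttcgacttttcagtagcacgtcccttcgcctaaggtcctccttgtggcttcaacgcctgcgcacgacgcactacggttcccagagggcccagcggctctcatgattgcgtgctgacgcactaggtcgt
Leng8: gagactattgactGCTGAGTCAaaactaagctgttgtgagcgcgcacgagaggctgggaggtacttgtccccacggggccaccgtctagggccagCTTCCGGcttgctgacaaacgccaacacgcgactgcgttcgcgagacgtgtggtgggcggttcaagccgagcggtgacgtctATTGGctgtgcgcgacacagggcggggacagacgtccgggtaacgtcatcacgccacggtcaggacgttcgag
Srsf5: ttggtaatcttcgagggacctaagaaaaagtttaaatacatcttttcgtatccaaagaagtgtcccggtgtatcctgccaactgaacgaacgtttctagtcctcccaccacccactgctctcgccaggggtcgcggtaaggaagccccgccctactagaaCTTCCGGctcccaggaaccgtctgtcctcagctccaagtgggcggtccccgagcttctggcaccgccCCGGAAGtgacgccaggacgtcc
Hnrnpab: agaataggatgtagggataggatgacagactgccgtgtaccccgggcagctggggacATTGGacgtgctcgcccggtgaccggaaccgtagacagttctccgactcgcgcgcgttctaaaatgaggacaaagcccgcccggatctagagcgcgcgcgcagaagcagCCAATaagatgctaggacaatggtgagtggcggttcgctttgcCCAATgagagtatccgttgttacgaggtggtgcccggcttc
The *Srrm2* window held no match, the *Leng8* window held an antioxidant response element core, a CCAAT box and an ETS core, the *Srsf5* window 2 ETS cores, and the *Hnrnpab* window 3 CCAAT boxes. A promoter was at hand for 40 of the 44 members (not for *Clk1*, *Hnrnpll*, *Hnrnpul2* and *Luc7l*). The antioxidant response element core was found in 8 of the 40 (20%), 1 of 6 members that rose and 1 of 5 that fell, and in 12.1% of 9607 promoters of all genes tested. The cAMP response element was found in 2 of the 40 (5%), *Clk4* and *Tra2a*, and in 2.76% of all promoters. The CCAAT box was found in 21 members (52.5%), 3 that rose and 2 that fell, against 36.7% of all promoters, and the ETS core in 8 (20%) against 14.3%. None of the 4 motifs separated the members that rose from those that fell.

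Ratios of related genes within a library do not change when the whole library is scaled by 1 factor. They do change with a correction that differs between genes, such as that for length. Of 16 pairs chosen within families, the ratio was apart between the groups in 6, higher after quinpirole in 3 and lower in 3, and each of these 6 had a two-sided exact permutation p of 0.1, the smallest that 3 libraries against 3 allow (0.267 after Benjamini-Hochberg adjustment over the 16 pairs), so no pair could reach 0.05. For single genes the share above was 20.0% and the share below 16.9%. *Tra2a* to *Tra2b* went from 1.50 ± 0.0461 to 1.15 ± 0.104 (SD, n = 3), and *Srrm1* to *Srrm2* from 0.599 ± 0.0524 to 0.803 ± 0.0569. *Hnrnpd* to *Hnrnpdl* was 0.970, 0.863 and 0.902 in Mock and 0.718, 0.692 and 0.761 in Quinpirole. These 3 pairs had the largest differences among the 6, -0.39, 0.42 and -0.33 on the log2 scale. The other 3 were *Hnrnph1* to *Hnrnph2* (2.51 to 2.15), *Hnrnpl* to *Hnrnpll* (3.40 to 3.77) and *Hnrnpul1* to *Hnrnpul2* (1.76 to 1.95). With the length correction described below, the log2 fold changes of *Hnrnpl* and *Hnrnpll* were 0.19 and 0.14, closer together than 0.17 and 0.02 without it. Those of *Tra2a* and *Tra2b* were -0.14 and 0.28, farther apart than -0.19 and 0.19. *Clk1* to *Clk4* was 1.44, 1.51 and 1.64 in Mock and 1.72, 1.70 and 1.62 in Quinpirole and overlapped (p = 0.2, exact permutation).

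**Figure D4:**
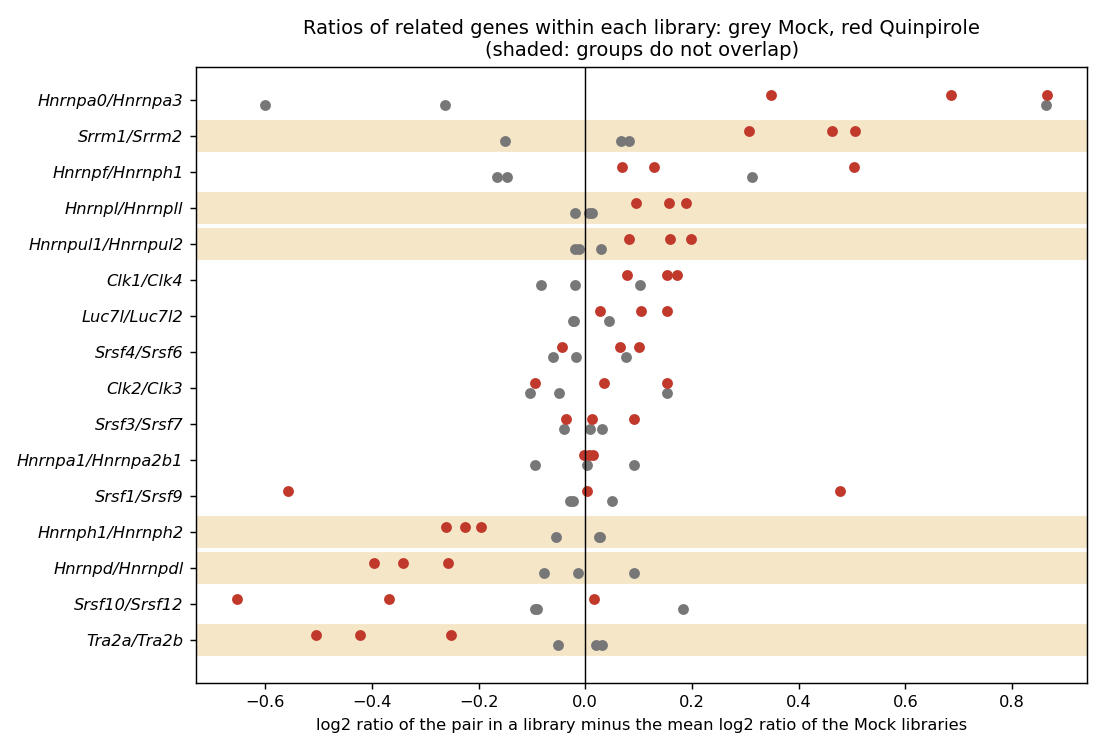
For 16 pairs of related genes, the log2 ratio in each library is plotted relative to the mean log2 ratio of the 3 Mock libraries (Mock grey, Quinpirole red), and pairs whose groups do not overlap are shaded. The 6 shaded pairs include *Srrm1*/*Srrm2* with a difference of 0.42 and *Tra2a*/*Tra2b* with a difference of -0.39.

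Gene length moved with the change over all genes, and the splicing regulators differ widely in length. When all genes were divided by summed exonic length into 5 classes of equal size, the median log2 fold change fell from 0.12 in class 1, the shortest, to -0.11 in class 5, the longest. Class 1 held 1 member, which did not pass the threshold. Of the 9 members in class 2 and the 6 in class 3, 2 rose in each, of the 15 in class 4 1 rose and 2 fell, and of the 13 in class 5 1 rose and 3 fell. The members that rose had a median exonic length of 4403 nucleotides and those that fell 8446 nucleotides. When the trend with length was removed from each library, 6 members passed the threshold, against 4.16% of all genes, with 4 higher (*Hnrnpab*, *Hnrnpl*, *Srsf5* and *Tra2b*) and 2 lower (*Leng8* and *Srrm2*). The log2 fold change was then -0.50 for *Leng8* and -0.44 for *Srrm2* (limma adjusted p = 0.0206 and 0.0270), while *Son*, with 14907 nucleotides, moved from -0.29 to -0.11 (limma adjusted p = 0.170). *Tra2b*, at 9235 nucleotides, had 0.28 after the correction (limma adjusted p = 0.0416). *Srsf11* (-0.30), *Clk4* (-0.16) and *Hnrnpdl* (0.17) kept most of their change but no longer passed (limma adjusted p = 0.0925, 0.0719 and 0.0503). The length correction also removes any true change that goes with length.

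**Figure D5:**
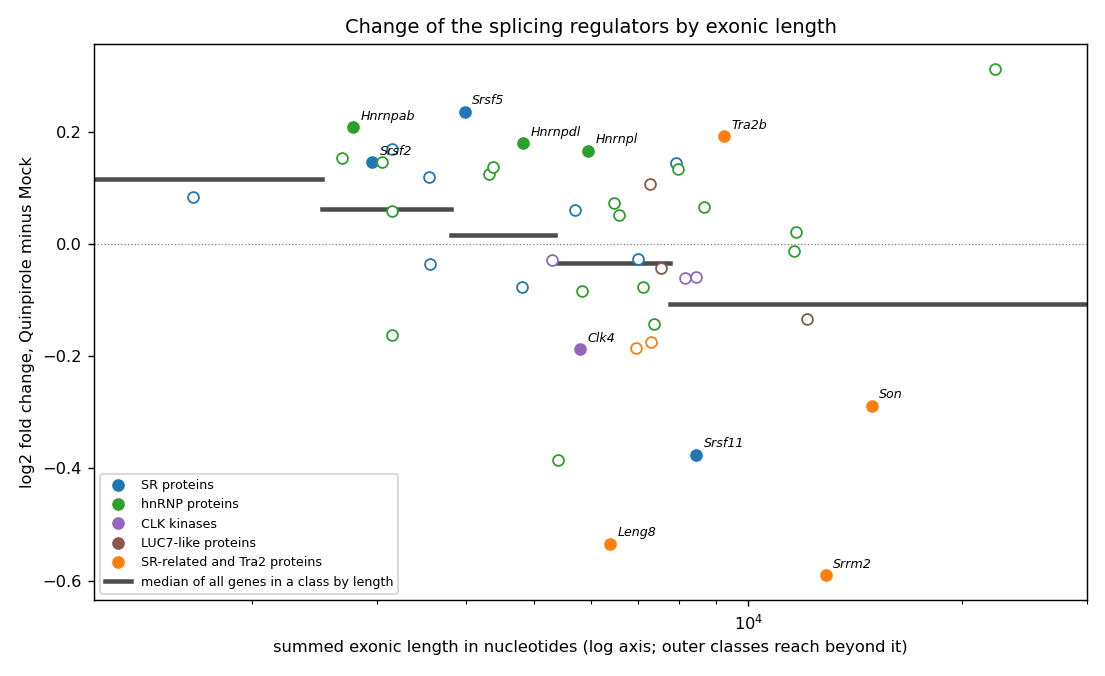
The log2 fold change of each splicing regulator, Quinpirole minus Mock, is plotted against its summed exonic length on a log axis, with the 11 members past the threshold filled and named. Black lines give the median of all genes in each of the 5 length classes, from 0.12 to -0.11, and *Srrm2*, *Leng8* and *Srsf11* lie far below the line of their class.

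Features that the choice by symbol did not use were read from GENCODE M21. A transcript annotated as retaining an intron was listed for 35 of 44 members (79.5%), compared with 59.5% of 12138 protein-coding genes tested, and a transcript annotated for nonsense-mediated decay for 31 (70.5%), compared with 28.8%, though the members also had more annotated transcripts (median 9.5 against 5). A retained-intron transcript was listed for 5 of 5 members that fell and 5 of 6 that rose. The tables give 1 value per gene, so FPKM of the coding and the noncoding transcripts could not be separated. Arginine-serine dipeptides, counted in both orders over the longest annotated protein, reached a median of 16.0 per 100 residues in the SR proteins, 8.75 in the SR-related and Tra2 proteins, 7.74 in the LUC7-like proteins, 3.59 in the CLK kinases and 0.994 in the hnRNP proteins. Members that rose ranged from *Srsf2* with 23.5, the highest of all, to *Hnrnpab* with 0.602, and members that fell from *Srrm2* with 11.8 to *Leng8* with 1.75, so the density did not separate the directions.

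Some members varied widely within a group. The highest value exceeded the lowest by more than 1.3 times within a group for 8 of the 44, *Srsf1*, *Srsf11*, *Srsf12*, *Hnrnpf*, *Hnrnpm*, *Hnrnpc*, *Hnrnpr* and *Hnrnpa3*. *Hnrnpc*, which binds U-rich tracts of nascent RNA, had 45.0 and 45.9 FPKM in Mock 1 and 2 but 28.1 FPKM in Mock 3, and 49.6 and 50.7 FPKM in Quinpirole 1 and 2 but 30.2 FPKM in Quinpirole 3, at an estimated 2930 fragments or more per library. *Hnrnpf* was high in the first library of both groups, at 149 FPKM beside 106 and 109 in Mock and at 160 FPKM beside 125 and 117 in Quinpirole. *Hnrnpm* had 58.0 FPKM in Mock 1 and 79.9 to 90.7 FPKM in the other 5 libraries. Part of these genes shares sequence with others. Of the 50-base words of the transcripts, 49.0% occurred in other genes for *Hnrnpf* (mainly processed pseudogenes), 46.4% for *Hnrnpa1*, 34.5% for *Hnrnpk*, 31.5% for *Srsf3*, 28.8% for *Hnrnpm* (shared with *March2*), 28.2% for *Hnrnpa3* and 12.3% for *Hnrnpc*, but 0% for *Srsf1*. Among the members past the threshold the share was 27.8% for *Srsf5* and 18.3% for *Tra2b*, so their FPKM is uncertain, and at most 5.70% for the other 9. The library kit does not mark the strand, and 29.1% of the exonic bases of *Hnrnpab* and 25.3% of those of *Srsf2* overlap genes on the opposite strand, so reads of those genes cannot be told apart. The part of shared and overlapping sequence in the results was not tested.

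Other splicing regulators were examined in 4 lists of 120 genes, of which 105 were tested. None rose past the threshold by limma, against 5.74% of all genes (14 were higher at an unadjusted p under 0.05), and 11 fell, against 5.18% of all genes. In either direction 10.5% of the 105 passed, near the 10.9% of all genes. The 31 tested RS-domain proteins outside the members held 6 of the 11. *Srek1*, which regulates splice site choice with SR proteins, fell from 12.6 ± 0.600 to 9.48 ± 0.609 FPKM (SD, n = 3) with a log2 fold change of -0.38, and *Nktr*, a cyclophilin with RS repeats, from 12.7 ± 1.29 to 8.86 ± 0.334 FPKM with -0.47 (both limma adjusted p = 0.0246). *Scaf1* and *Pnisr* had log2 fold changes of -0.24 and -0.25, and *Rbm25* and *Prpf38b* also passed. Among 41 tissue-specific and general splicing factors 4 fell: *Nova2*, known for neuronal splicing, from 6.57 ± 0.601 to 4.47 ± 0.121 FPKM, the helicase gene *Ddx17*, *Rbm5*, and *Qk*, the glial regulator quaking, from 64.2 ± 4.46 to 54.0 ± 2.18 FPKM. Of 28 core proteins of the U2 and U5 particles only *Snrnp200*, the U5 helicase, passed the threshold, with a log2 fold change of -0.25 (limma adjusted p = 0.0250). Of the 6 SR protein kinases outside the CLK family, *Srpk3* was under the filter and 0 of the other 5 passed by limma, with 1 lower at an unadjusted p under 0.05. The calls in these lists were in one direction, while the 44 members had 6 higher and 5 lower, and the difference between them was not tested. The 11 genes that fell had 5930 (*Scaf1*) to 21283 (*Nktr*) exonic nucleotides. They lie in length classes 4 and 5, where the median log2 fold change of all genes was -0.034 and -0.11. After the length correction 6 of the 105 genes passed, against 4.16% of all genes, with 1 higher and 5 lower. With 1 library left out, limma called 0 of the 105 without Mock 1, Mock 2 or Quinpirole 1, 1 without Quinpirole 2, 2 without Quinpirole 3 and 11 without Mock 3, in the same fits that left 6, 3, 11, 25, 210 and 1215 of all genes.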

How the data were processed

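RNA sequencing of brain astrocytes was compared between 3 Mock and 3 Quinpirole libraries, grouped by their labels. The authors prepared poly-T-selected libraries, mapped paired-end reads with TopHat2 (per the labels to GRCm38), kept reads with at most 1 mismatch and deposited a table of FPKM per library, 1 value for each gene. The program that computed FPKM and its annotation are not given in the sources used here. Symbols matched 17090 of 17193 identifiers, and positions, lengths and transcripts came from GENCODE M21, promoters from RefSeq (GRCm38.p6). Because FPKM are not counts, log2(FPKM + 1) was fitted for genes whose FPKM averaged at least 1 with limma 3.58.1 in R 4.3.3 (lmFit, eBayes with trend, two-sided, Benjamini-Hochberg, threshold 0.05), after a test on simulated data. A pseudocount of 1 understates changes of low genes. Depth was estimated from FPKM steps of 1254 genes. The estimated fragment numbers bear only on counting error. Standard errors and p-values from limma rest on the spread between libraries within each group. The length correction subtracted, per library, a loess fit (span 0.3) on log2 exonic length. Genes named are the members past the threshold, the highest member of each family, paralogs of those past it, the other members by range, and from each other list the 4 genes with the smallest p past the threshold. *Rbm25*, *Prpf38b* and the members with wide spread were named after their values were seen. The members and lists were chosen with earlier results of these data known. Alternatives were other pseudocounts, filters, scalings, variance settings, a replicate block, corrections for length and GC content, and omission of each library. Python 3.11.15 with numpy 2.4.6, pandas 2.3.3, scipy 1.17.1, Biopython 1.88 and matplotlib 3.10.9 was used.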

Additional observations from a re-analysis of the deposited data

How the results depend on the processing

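Against 1339 genes, 11 members and 11 other splicing regulators past the threshold, 633, 5 and 5 passed with no filter on low values, and 714, 3 and 5 with eBayes without trend. With the transcript length correction 509, 6 and 6 passed, and with length and GC content 375, 5 and 4. With quantile normalization 781 genes and 6 members passed, and the median log2 fold change of the members was -0.032 instead of 0.037. The causes were not tested. With a pseudocount of 0.1, a filter at a mean FPKM of 5, median ratio scaling and robust estimation, 10 to 12 members passed. With 1 library left out, the counts ranged from 3 to 1215 genes, 0 to 6 members and 0 to 11 other regulators. Deviations of same-numbered libraries were not clearly correlated (0.026, -0.066 and -0.10). Single members went both ways: *Hnrnpc* and *Hnrnpf* moved with the replicate number in both groups, and *Hnrnpm* did not. Whether same-numbered libraries shared a batch was not tested. A replicate block left 2 genes, 0 members and 0 other regulators (20 members and 3308 of all genes at an unadjusted p under 0.05, limma). The block with the length correction left 0, 0 and 0 (19 members and 2723 of all genes). The 11 members past the threshold kept their sign in all 17 alternatives, but most of these could not have changed it. The groups of these members did not overlap, so another pseudocount or 1 library left out cannot reverse the sign. The filters, the variance settings and the replicate block alone leave the log2 fold change as it was. Only the scalings and the corrections for length and GC content could have changed the sign.

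Small log2 fold changes of members not past the threshold changed sign. With quantile normalization they were -0.071 for *Hnrnpa2b1*, -0.034 for *Hnrnpk* and -0.031 for *Hnrnpa1*. With the length correction, with or without the replicate block, they were 0.11 for *Hnrnpu*, 0.015 for *Clk3*, 0.014 for *Luc7l*, 0.019 for *Srsf10*, -0.020 for *Srsf9* and 0.0088 for *Clk1*. With length and GC content they were 0.060 for *Hnrnpu*, 0.032 for *Clk3*, 0.0072 for *Clk2*, 2.1e-04 for *Luc7l*, -0.025 for *Srsf9* and -0.027 for *Hnrnpa1*. With 1 library left out, *Srsf1* ranged from -0.22 to 0.34, *Hnrnpc* from -0.10 to 0.36, *Hnrnpm* from -0.070 to 0.25, *Hnrnpk* from -0.020 to 0.15, *Clk2* from -0.065 to 0.023, *Srsf4* from -0.063 to 0.0040, *Hnrnpll* from -0.0046 to 0.038 and *Hnrnpu* from -0.032 to 0.0093.

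The tables hold no counts. At the estimated depth every member past the threshold had at least 2220 fragments in each library. With 3 libraries per group no exact permutation p can lie under 0.1. *Srsf12*, with 70 estimated fragments in its lowest library, had the fewest of the members. Its standard error (0.11, limma) was below those of *Hnrnpa3* (0.27), *Hnrnpc* (0.24) and *Srsf1* (0.24), among others.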
